A study of Drosophila melanogaster with 8 samples.

Results

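The genes described here are 10 components of the muscle sarcomere, the contractile unit of striated muscle, measured in macrophages sorted from Drosophila melanogaster embryos. They were chosen by name from the 17494 genes of the deposited tables, with their levels in these libraries and their difference between the genotypes already known. Mhc, Mlc1 and Mlc2 encode the myosin of the thick filament. Act57B and Tm2 encode actin and tropomyosin of the thin filament. The genes wupA, up, TpnC47D and TpnC73F encode troponin subunits, and sls encodes a titin-like elastic protein. The samples were 4 libraries from CG9005 mutant embryos and 4 libraries from wild type (WT) embryos. Embryos of both genotypes were collected at stage 11 at 29°C and dissociated, and mCherry-positive macrophages (hemocytes) were sorted by flow cytometry. PolyA RNA was sequenced with reads of 50 bases. Both groups carried the 3xMcherry label. Neither the allele of CG9005 nor the driver of the label is stated. Whether replicates came from separate collections is not stated either, so p-values measure only the spread between these libraries, which may be technical.

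In a sarcomere, myosin heads on the thick filament pull on actin of the thin filament. Tropomyosin and the troponin complex block that contact at rest and release it when calcium binds troponin C. In the fly, these genes are switched on together late in embryonic muscle differentiation, under the transcription factor Mef2 among others, and most have separate cytoplasmic relatives that serve cell shape and movement. Macrophages use the cytoplasmic relatives, and sarcomere genes are not among the genes they are known for.

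Recovered depth was 15782570 to 18942786 reads per library. Levels are in TPM, a share of all transcripts that corrects for gene length, so genes can be compared with each other. The macrophage markers NimC4, crq, Sr-CI and gcm were each above 150 TPM in all 8 libraries, while Hml, He and eater were at 0 in most of them. The level of CG9005 itself did not check the labels. It was 75.04, 103, 94.0 and 84.3 TPM in the mutant libraries, against 72.9, 79.3, 114 and 84.5 TPM in the WT libraries. A developmental stage field in the labels counts up by 1 per library, with 15 to 18 in the mutant libraries and 11 to 14 in the WT libraries, against stage 11 for both in the growth protocol. It is treated here only as an alternative covariate. If the field were right, stage and genotype could not be told apart.

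All 10 sarcomere genes had a higher mean in the mutant libraries than in the WT libraries, by 2.08-fold for sls to 17.6-fold for Mlc1. Over the 13040 genes above 0 in at least 1 library, the mutant mean was at least 2 times the WT mean for 17.1%. In the authors' deposited table the log2 fold changes of the 10 genes run from 1.18 for wupA to 4.63 for Mlc1. Their summed level was 169, 138, 42.9 and 108 TPM in mutant replicates 1 to 4, against 45.2, 17.2, 26.5 and 22.3 TPM in WT replicates 1 to 4. Mutant replicates 1, 2 and 4 were thus all above the WT libraries, while mutant replicate 3 lay within their range. In recovered reads, the 10 genes together had 6496, 6297, 2193 and 4652 reads in the mutant libraries, against 2596, 807, 2130 and 951 reads in the WT libraries. In sorted cells pooled for RNA, more cells that hold these transcripts and more transcript per cell cannot be told apart. Since the genes were chosen with this difference in view, it is given as a description, without a test.

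**Figure D1:**
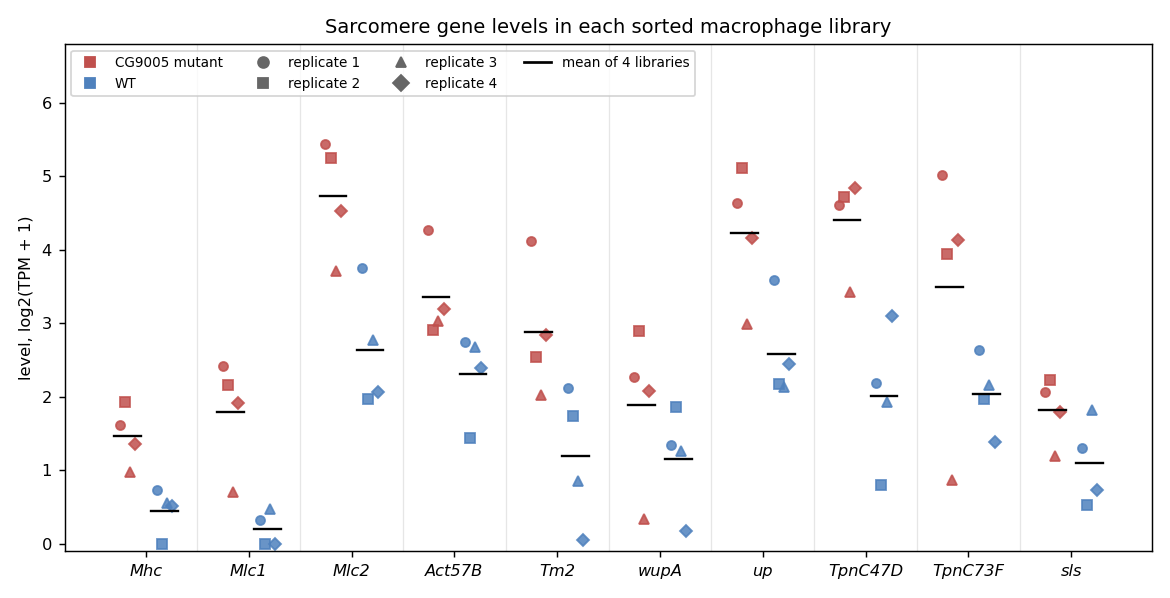
Level of each sarcomere gene, as log2(TPM + 1), in the 4 CG9005 mutant libraries (red, left) and the 4 WT libraries (blue, right), with replicates by marker shape and the mean of each group as a black line. The mutant mean is above the WT mean for all 10 genes, and mutant replicate 3 (triangles) is the lowest mutant library for 9 of them.

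For Mhc, Mlc1, TpnC47D and Act57B, 4 of the 10 genes, the libraries of both genotypes did not overlap. Over the same 13040 genes, 2.68% had all mutant libraries above all WT libraries. Mutant replicates 1 and 2 exceeded every WT library for all 10 genes, mutant replicate 4 for 9 and mutant replicate 3 for 4. Without mutant replicate 3 the groups did not overlap for 9 genes, against 4.57% of the 13040 genes, and the fold differences ran from 2.44 to 22.2. That library was set aside after it was seen to be low for these genes, so nothing is read from the change. Of the 10 genes, 8 reached the minimum for testing (1 TPM in at least 4 libraries), and Mhc and Mlc1 did not.

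The thick filament genes differed widely in level. Mlc2, the regulatory light chain of muscle myosin, was the highest of the 10, with 42.6, 37.0, 12.1 and 22.0 TPM in the mutant libraries, against 12.4, 2.93, 5.81 and 3.18 TPM in the WT libraries. WT replicate 1 lay just above mutant replicate 3, and all other mutant libraries lay above all WT libraries. The group means were 28.4 ± 13.9 TPM in the mutant and 6.08 ± 4.42 TPM in WT (SD, n = 4 each), a difference of 2.09 on the log2(TPM + 1) scale (SE 0.46). Mhc, the only gene for muscle myosin heavy chain in the fly, was far lower, with 2.06, 2.80, 0.967 and 1.56 TPM in the mutant libraries, against 0.660, 0, 0.468 and 0.428 TPM in the WT libraries. No mutant library overlapped the WT range, and the 0 in WT replicate 2 allows up to 0.0243 TPM at a floor of 3 reads. Because Mhc is long, its values still rest on 120 to 327 reads per mutant library and 0 to 87 per WT library. Mlc1, the essential light chain, had 4.33, 3.45, 0.619 and 2.78 TPM in the mutant libraries, against 0.243, 0, 0.391 and 0 TPM in the WT libraries. It was nearly absent from WT, at 5, 0, 6 and 0 reads, so the 17.6-fold ratio of its means rests on few WT reads. The zeros in WT replicates 2 and 4 allow up to 0.156 and 0.171 TPM.

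Of the thin filament genes, Act57B encodes an actin of embryonic and larval body wall muscle. It had 18.3, 6.47, 7.15 and 8.17 TPM in the mutant libraries, against 5.70, 1.71, 5.40 and 4.26 TPM in the WT libraries. The groups did not overlap, though mutant replicate 2 was only slightly above WT replicate 1, and the difference of the means was 1.04 on the log2(TPM + 1) scale (SE 0.39). The fly actin genes are near-identical in their coding parts, so a split of reads between them is uncertain, and the exons of Act57B also overlap a small nucleolar RNA gene on the same strand. Tm2, the muscle tropomyosin, had 16.4, 4.80, 3.04 and 6.19 TPM in the mutant libraries, against 3.34, 2.33, 0.811 and 0.0309 TPM in the WT libraries. Mutant replicate 1 stood well above the rest, and WT replicate 4 held 1 read, so the range within WT was wide.

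The troponin complex consists of troponin T, troponin I and troponin C. The troponin T gene up had 23.9, 33.5, 6.95 and 16.9 TPM in the mutant libraries, against 11.0, 3.49, 3.39 and 4.46 TPM in the WT libraries. Mutant replicate 3 fell below WT replicate 1 and the other mutant libraries were above it. The troponin I gene wupA had 3.80, 6.42, 0.258 and 3.22 TPM in the mutant libraries, against 1.53, 2.64, 1.40 and 0.122 TPM in the WT libraries. For wupA, mutant replicate 3 was below 3 of the 4 WT libraries, with 7 reads, and the difference of 0.73 had an SE of 0.56. That difference was 0.40 without mutant replicate 2, 0.40 without WT replicate 4 and 1.25 without mutant replicate 3.

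Of the troponin C genes, TpnC47D had the largest difference of the 10 genes on the log2(TPM + 1) scale, 2.39 (SE 0.47). With a pseudocount of 0.1, Mlc1 came first at 3.56, against 2.80 for TpnC47D, and it also came first with voom and by the ratio of means. TpnC47D was at 23.4, 25.3, 9.69 and 27.8 TPM in the mutant libraries, against 3.56, 0.743, 2.80 and 7.55 TPM in the WT libraries, with no overlap. TpnC73F had 31.3, 14.4, 0.827 and 16.5 TPM in the mutant libraries, against 5.19, 2.91, 3.48 and 1.60 TPM in the WT libraries. Mutant replicate 3 was the lowest of all 8 libraries for TpnC73F, on 12 reads, and the other mutant libraries were the highest. Its log2 difference of 1.45 became 2.33 with that library left out, and 0.95 with mutant replicate 1 left out instead. The genes are related in sequence, and how reads that match both were counted is not stated. Other troponin C genes did not follow them. TpnC4 had 5.84, 0.639, 5.85 and 0.0843 TPM in the mutant libraries, against 0.0810, 3.90, 0.760 and 4.85 TPM in the WT libraries, TpnC41C was at or below 0.907 TPM and TpnC25D was at 0 in all 8 libraries.

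The elastic filament gene sls had the smallest ratio of means, with 3.18, 3.67, 1.29 and 2.47 TPM in the mutant libraries, against 1.46, 0.439, 2.54 and 0.661 TPM in the WT libraries. WT replicate 3 lay above mutant replicates 3 and 4. With 58996 bases of exon, sls had more reads than any other of the 10 genes in every library, from 352 in WT replicate 2 to 2798 in mutant replicate 2, so reads were not what limited it. Its exons overlap an antisense RNA gene, and the strand setting of the authors' counting is not stated.

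Mutant replicate 3 was low for nearly all 10 genes, while the order of the WT libraries changed more between genes. TpnC47D was at its own highest in mutant replicate 4, 5 genes were highest in mutant replicate 1 and 4 in mutant replicate 2, while 9 were lowest among the mutant libraries in replicate 3, with Act57B as the exception. For comparison, mutant replicate 3 was the lowest mutant library for 23.4% of the 7827 tested genes. In WT, 6 genes were highest in replicate 1 and 6 were lowest in replicate 2. The mean of log2(TPM + 1) over the 10 genes was 3.65, 3.36, 1.92 and 3.08 in the mutant libraries, against 2.07, 1.25, 1.66 and 1.28 in the WT libraries. Mutant replicate 3 was thus below WT replicate 1 and above the other WT libraries. In each genotype the library with the lowest number in the stage field, replicate 1, had the highest mean. Depth was 16612859, 16960484, 18151793 and 18306169 reads in mutant replicates 1 to 4. In WT replicates 1 to 4 it was 18942786, 18478147, 15782570 and 16576922 reads. Replicate 1 was thus the shallowest mutant library and the deepest WT library. Whether depth had a part in the order was not tested.

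**Figure D2:**
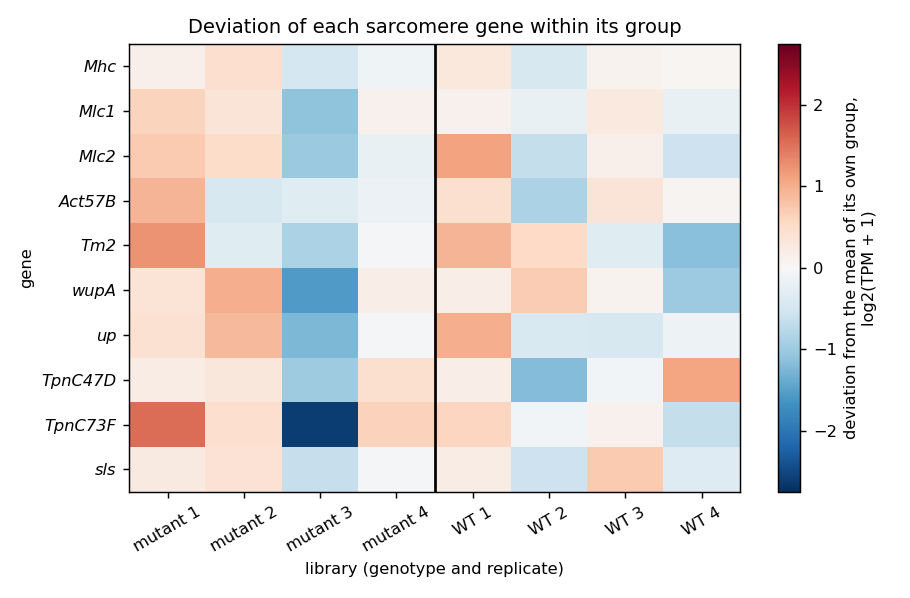
Deviation of each sarcomere gene (rows) in each library (columns, 4 mutant then 4 WT) from the mean of its own group, in log2(TPM + 1), red for higher and blue for lower. The column of mutant replicate 3 is blue for all 10 genes, with TpnC73F the lowest, while the WT columns are more mixed.

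Over the 45 pairs among the 10 genes, the Pearson correlation of log2(TPM + 1) across the 8 libraries ran from 0.25 to 0.95 with a median of 0.78, which includes the difference between the genotypes. With each genotype centred on its own mean the median was 0.59 and 43 of the 45 pairs were above 0. Over the 4 mutant libraries alone the median was 0.87 (0.14 to 0.998), where mutant replicate 3 was the lowest library for 9 of the 10 genes. Over the 4 WT libraries alone it was 0.53 (−0.94 to 0.98), with 37 of the 45 pairs above 0. All these correlations are descriptions over 8 libraries that all genes share. Mlc1 and Mlc2 followed the mean of the other genes most closely, at 0.98 and 0.97, and wupA least, at 0.68. With the genotypes centred, TpnC47D had the weakest relation to the other genes, 0.40, and Mlc1 the strongest, 0.94. TpnC47D was the member that was highest in WT replicate 4, a library in which Tm2, wupA and TpnC73F were at their lowest in WT.

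Another 23 sarcomere genes outside the 10 were listed by their known role. The list was drawn up with earlier results of these data known, so its counts are no independent support. Of the 23 genes, 22 were above 0 in at least 1 library. A higher mean in the mutant was found for 18 of the 22, against 42.5% of the 13040 genes above 0 in at least 1 library. Only 9 reached the minimum for testing. All 9 had a log2 difference above 0 (41.7% of all tested genes did), and their median was 0.25, against −0.06 over all tested genes. With a library left out the median was 0.29 to 0.43, over 10 to 12 genes, since the minimum then fell to 3 libraries. It was more than 1.5 times the full value without mutant replicate 2 or 4 or WT replicate 2 or 4. With voom it was 0.72, over 8 genes. The change of genes and the change of libraries were not separated. A single gene of the 9 was called at a limma adjusted p under 0.05, where 1.67% of all tested genes were called in either direction and 0.882% as higher. This was Act87E, a muscle actin, with 100.3, 48.5, 58.9 and 58.3 TPM in the mutant libraries, against 22.8, 31.6, 36.1 and 27.1 TPM in the WT libraries. Its groups did not overlap, and its log2 difference was 1.12 (SE 0.24, limma adjusted p = 0.0429). The call was lost without each of the 8 libraries in turn (limma adjusted p 0.0550 to 0.111), with a replicate block (limma adjusted p = 0.138), with the stage field as covariate (limma adjusted p = 0.445), with a pseudocount of 0.1 and without a filter, and it was kept with limma's voom on the recovered reads (limma adjusted p = 0.0176). As a near-identical actin gene whose exons overlap a noncoding RNA on the opposite strand, Act87E also carries the uncertainty named for Act57B.

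Other genes of this list moved less clearly. Mlp60A encodes a muscle LIM protein. It had 18.5, 19.5, 2.54 and 10.03 TPM in the mutant libraries, against 6.61, 1.79, 2.56 and 7.76 TPM in the WT libraries. Mlp60A shared the low mutant replicate 3 of most of the 10 genes, and its log2 difference was 1.14 (SE 0.57, limma adjusted p = 0.468). The projectin gene bt, a giant kinase of the thick filament, had 1.62, 2.05, 0.878 and 1.27 TPM in the mutant libraries, against 0.636, 0.365, 1.00 and 0.294 TPM in the WT libraries (log2 difference 0.64, limma adjusted p = 0.508). Below the minimum for testing, Prm (paramyosin, the core of the thick filament) and sals (a regulator of thin filament length) had all mutant libraries above all WT libraries, at no more than 1.59 and 2.23 TPM. With Act87E they made 3 of the 22 listed genes above 0, against 2.68% of the 13040 genes. Tm1 and unc-45, which non-muscle cells also use, had small differences, and that of Tm1 was below 0 with some libraries left out (−0.15 without WT replicate 1). Tm1 averaged 42.3 ± 5.67 TPM in the mutant and 44.8 ± 24.0 TPM in WT, and the log2 difference of the myosin chaperone gene unc-45 was 0.25 (limma adjusted p = 0.978 and 0.771). Act88F, the actin of the adult flight muscle, was above 0 in 1 library only, at 0.583 TPM, and Act79B, another actin of adult muscles, was at 0 in 4 of the 8 libraries.

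**Figure D3:**
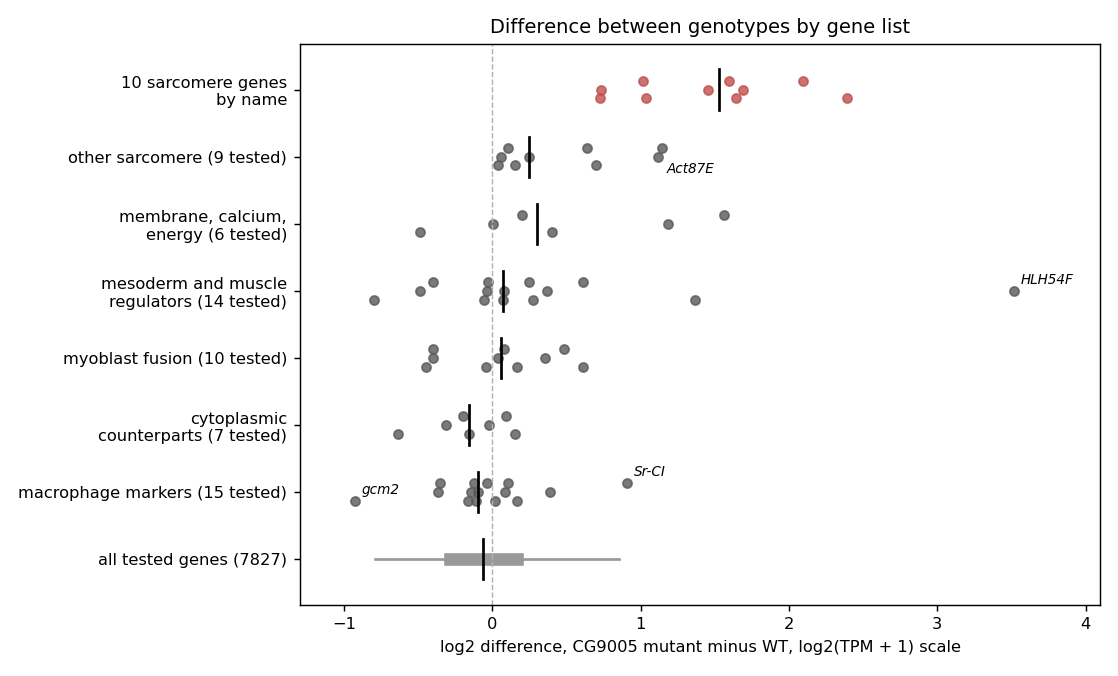
Log2 difference, CG9005 mutant minus WT in log2(TPM + 1), for the 10 sarcomere genes (red) and for the tested genes of 6 other lists (grey points), with the median of each row as a black line. The bottom row gives all 7827 tested genes as their median (line), middle 50% (thick bar) and middle 90% (thin bar), and Act87E, HLH54F, Sr-CI and gcm2 are the called genes among the grey points.

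Genes of the muscle membrane, its calcium handling and its energy supply were listed as 13 more, of which 6 were tested and none was called. Their median log2 difference was 0.30. Argk, the arginine kinase that buffers ATP in muscle and nerve, had 16.8, 16.8, 5.31 and 9.07 TPM in the mutant libraries, against 4.20, 3.46, 4.87 and 0.944 TPM in the WT libraries. All mutant libraries were above all WT libraries and mutant replicate 3 was again the lowest of them (log2 difference 1.56, SE 0.44, limma adjusted p = 0.133). Amph, amphiphysin of the T-tubules, and Dg, dystroglycan, did not overlap either, with log2 differences of 1.18 and 0.40 (limma adjusted p = 0.249 and 0.348). With Calx, at no more than 0.147 TPM, these made 4 of the 11 listed genes above 0 in at least 1 library. Over the 13040 genes above 0, 2.68% had all mutant libraries above all WT libraries. Unlike the sarcomere genes, Amph was highest in mutant replicate 3, at 6.06 TPM. The calcium pump gene SERCA, which every cell uses, averaged 54.3 ± 7.62 TPM in the mutant and 54.5 ± 9.31 TPM in WT (limma adjusted p = 0.998).

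Among the regulators that act before the sarcomere genes, HLH54F rose and Mef2 did not pass the test. Mef2, the muscle transcription factor, had 21.3, 14.1, 13.0 and 11.9 TPM in the mutant libraries, against 12.7, 13.4, 16.2 and 13.3 TPM in the WT libraries, with full overlap (log2 difference 0.08, limma adjusted p = 0.940). Of 17 mesoderm and muscle regulators 14 were tested, 8 with a log2 difference above 0 and 6 below. Of all tested genes, 41.7% were above 0 and 1.67% were called. The median of the list was 0.07, and −0.08 without mutant replicate 1. All mutant libraries were above all WT libraries for 2 of the 17, HLH54F and stumps, against 2.68% of the 13040 genes above 0. For stumps the gap was small, from 6.28 TPM (highest WT) to 6.35 TPM (lowest mutant). HLH54F, which encodes a bHLH factor needed by visceral muscle precursors, was the only 1 called, at 70.7, 35.4, 32.9 and 29.1 TPM in the mutant libraries, against 3.76, 4.50, 3.59 and 0.299 TPM in the WT libraries (log2 difference 3.51, SE 0.46, limma adjusted p = 0.00251). It was not low in mutant replicate 3 relative to replicates 2 and 4. Other factors of visceral mesoderm had differences in both directions that did not pass the test, 1.37 for bin and −0.80 for bap (limma adjusted p = 0.304 and 0.478). Of 11 myoblast fusion genes, which join muscle precursors into fibres, 10 were tested, none was called, and their median of 0.06 changed sign with single libraries left out (−0.08 without WT replicate 4 and 0.23 without WT replicate 3). The highest of them, mbc, averaged 66.7 ± 8.31 TPM in the mutant and 88.5 ± 11.6 TPM in WT (limma adjusted p = 0.322).

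Of the 7 cytoplasmic relatives listed, none was called. Their levels ran from 1.37 TPM for cher, the filamin, to 5078 TPM for Act5C in the mutant, and from 1.15 to 4817 TPM for the same genes in WT. The non-muscle myosin heavy chain gene zip averaged 258 ± 34.3 TPM in the mutant and 335 ± 126 TPM in WT, and the regulatory light chain gene sqh 380 ± 39.4 and 437 ± 60.2 TPM in those groups (limma adjusted p = 0.658 and 0.616). Act5C, the main cytoplasmic actin, averaged 5078 ± 567 TPM in the mutant and 4817 ± 994 TPM in WT (limma adjusted p = 0.875). The level of Mhc was therefore 0.741 ± 0.355% of that of zip in the mutant and 0.137 ± 0.118% in WT (SD, n = 4 each). The level of Mlc2 was 7.60 ± 3.79% of that of sqh in the mutant and 1.498 ± 1.24% in WT. That of Act57B was 0.196 ± 0.0965% of that of Act5C in the mutant and 0.0966 ± 0.0536% in WT. The highest value among these 3 ratios was 11.0%, for Mlc2 in mutant replicate 2. Tropomyosin varied more, since Tm2 reached 45.3% of the level of Tm1 in mutant replicate 1 and 0.0917% in WT replicate 4. Tm1 is not among the 7 relatives but was listed above with the other sarcomere genes, so its ratio is not one of muscle to cytoplasmic gene alone. The level of Mlc1, on few WT reads, was 7.06 ± 3.91% of that of the cytoplasmic light chain gene Mlc-c in the mutant. In WT it was 0.310 ± 0.374%. Mlc-c itself averaged 39.7 ± 8.87 TPM in the mutant and 64.5 ± 26.3 TPM in WT (limma adjusted p = 0.337).

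Among the 7819 tested genes outside the 10, the library profiles most like the sarcomere mean, by Pearson correlation over the 8 libraries, were those of Pgm, CG5080, beat-IIa, GlyP, Pdp1, CG32521, CG31140, Neurochondrin, CG43897 and CG17841, with r of 0.94 to 0.97. In all, 35 genes had an r over 0.9, and for 6 of them it stayed over 0.9 with the genotypes centred. A further 49 genes had an r under −0.9. Pgm, phosphoglucomutase of glycogen and sugar metabolism, had 15.5, 16.6, 8.67 and 13.3 TPM in the mutant libraries, against 6.87, 6.02, 6.65 and 5.43 TPM in the WT libraries. GlyP, the glycogen phosphorylase, had 13.0, 7.37, 2.23 and 7.19 TPM in the mutant libraries, against 5.05, 1.54, 2.93 and 2.03 TPM in the WT libraries, and its r with the genotypes centred was the highest of the 10 similar genes, 0.98. Pdp1, a leucine zipper transcription factor of the circadian clock and of muscle, was at 42.0 to 70.1 TPM in the mutant libraries and 31.5 to 42.4 TPM in the WT libraries. The immunoglobulin family gene beat-IIa averaged 7.46 ± 3.16 TPM in the mutant and 0.817 ± 0.533 TPM in WT. These genes were picked for their profile, so their difference between the genotypes is no separate result. Of the listed muscle genes, Argk (0.92) and bt (0.91) came closest.

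**Figure D4:**
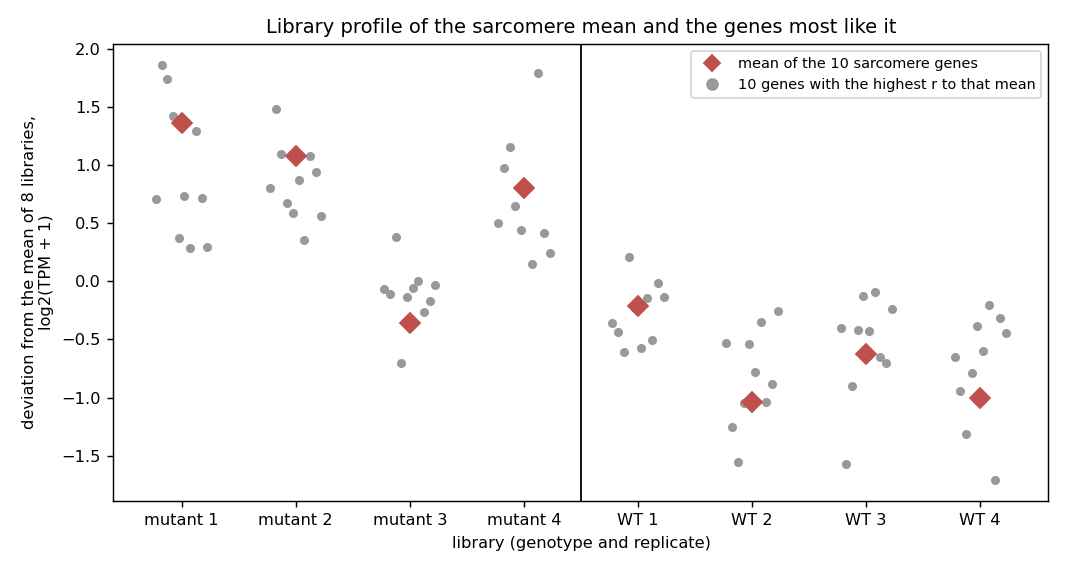
Deviation from the mean of the 8 libraries, in log2(TPM + 1), for the mean of the 10 sarcomere genes (red diamonds) and for the 10 other genes with the highest correlation to it (grey points), by library. The red diamond lies highest in mutant replicate 1, and in mutant replicate 3 it lies below that of WT replicate 1.

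The 10 genes lie on several chromosomes (BDGP6). Mhc is on 2L (16766566 to 16788766), TpnC47D (11273845 to 11275286) and Act57B (20944021 to 20946431) are on 2R, and the other 7 are on 3L, 3R and X. CG9005 is also on 2R (11619479 to 11640941), and TpnC47D lies 344 kb from it. All mutant libraries were above all WT libraries for 3 of the 3 sarcomere genes on chromosome 2 and for 1 of the 7 elsewhere. Over all genes above 0 in at least 1 library, all mutant libraries exceeded all WT libraries for 3.70% on chromosome 2, 2.05% on chromosomes 3, 4 and X, and 4.93% within 2 Mb of CG9005. The mean log2 difference was 1.48 for the 3 genes on chromosome 2 and 1.42 for the 7 on the others. The part of the chromosome in the difference was not tested.

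Markers of other cell types were read in the same libraries. The 4 markers of tendon cells, to which muscles attach, summed to 13.8 to 18.8 TPM in the mutant libraries and 3.02 to 6.04 TPM in the WT libraries. The difference came from slow, which rose to 14.8 ± 2.37 TPM in the mutant, against 1.47 ± 0.639 TPM in WT (SD, n = 4 each, limma adjusted p = 0.000818). The list held sr, its defining transcription factor, at no more than 0.181 TPM in the mutant libraries and 0.102 TPM in the WT libraries, and Tsp and Lrt had lower means in the mutant. Neuron markers summed to 51.0 to 65.7 TPM in the mutant libraries and 43.3 to 74.4 TPM in the WT libraries, nearly all of it elav. The others were at no more than 2.97 TPM in any library. All 5 had a higher mutant mean, against 42.5% of the 13040 genes above 0, and the groups overlapped for all 5. Of these 5, 2 reached the minimum for testing and neither was called. Fat body markers summed to 8.59 to 44.6 TPM in the mutant libraries and 7.45 to 21.7 TPM in the WT libraries, all from apolpp, with Fbp1 and Lsp2 at 0 throughout. Glial, tracheal and germline lists overlapped between the groups. The 18 macrophage markers summed to 7454 to 9154 TPM in the mutant libraries and 5916 to 9492 TPM in the WT libraries. Of the 15 tested, Sr-CI was called higher and gcm2 lower, where 0.792% of all tested genes were called lower. Whether any of these cell types had a part in the sarcomere levels was not tested.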

How the data were processed

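RNA-seq of sorted macrophages was analysed from 8 libraries, 4 per genotype, grouped by their titles because the genotype field is the same for both. The authors deposited TPM per gene, 1 column per library summing to 1000000, and a comparison table for 11058 genes with log2 fold changes. In the authors' deposited table all 10 sarcomere genes have a log2 fold change above 0. The submitters' processing notes name the build BDGP6, the aligner STAR 2.5.1b and the packages limma and edgeR, besides R 3.4.4 and HTSeq 0.5.4p3, without their settings. TPM multiplied by union exon length (Ensembl release of BDGP6) gave whole reads, up to a constant for each library, for 98.8% to 99.0% of genes, within 0.05 reads, and for all 80 values of the sarcomere genes. Reads recovered in this way give the depth, and floors of 3 reads cover counting error only.

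Limma 3.58.1 in R 4.3.3 was fitted to log2(TPM + 1) with a variance trend and genotype as the only term, over the 7827 genes that reached 1 TPM in 4 or more libraries (3 with a library left out). Benjamini-Hochberg adjusted p under 0.05 was a call. Fold changes on this scale understate low genes. For Mhc and Mlc1, below that minimum, difference and error come from the same fit with them kept in. The pipeline was tested on simulated data, with genes of few reads left out and the same small spread set for all genes. That test does not cover the wider spread of the sarcomere genes. Members and lists were chosen with earlier results of these data known. Besides the 10 genes and CG9005, the named-gene rule took the called genes, the 3 smallest p and the 4 highest levels of each list, and the 10 genes most like the sarcomere mean. Prm, sals, Mef2, Act79B, Act88F, other troponin C genes and the marker genes were named after their values were seen. Alternatives were other pseudocounts, filters and scaling, a replicate block, the stage field, voom and each library left out.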

Additional observations from a re-analysis of the deposited data

Results flagged for a closer look

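In a group of 4 libraries, a value counts as far from the others when its gap to the nearest one takes more of the whole range of log2(TPM + 1) than Dixon's critical value allows, which chance gives in about 1 of 20 groups. Among 98 groups examined, 4 had such a value. TpnC47D was low in mutant replicate 3, at 9.69 TPM, with a gap of 0.835 of the range. CG32521, a gene chosen for its likeness to the sarcomere mean, was low in the same library, at 5.77 TPM (0.851). HLH54F was low in WT replicate 4, at 0.299 TPM (0.875). The cytoplasmic myosin light chain gene Mlc-c was high in WT replicate 4, at 104 TPM (0.923).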

How the results depend on the processing

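The mean log2 difference over the 10 sarcomere genes, 1.44, was above 0 under all 15 alternatives. So was each gene's own difference in all 150 recomputed values. The other filters and the replicate block could not move these values, and the mean stayed at 1.44 under each. Since the genes were chosen with the difference known, its sign under the alternatives is no separate support. The mean difference was 1.22 to 1.80 with a library left out and 2.45 with the stage field as covariate. With voom on recovered reads, a scale without the pseudocount of 1, it was 2.36. The number of called genes, 131 of 7827, was 76 without a filter, 75 with a minimum of 10 TPM, 92 with a pseudocount of 0.1, 88 with voom, 9 with the stage field, which largely follows genotype, and 71 to 110 with a library left out. Leaving out mutant replicate 2 or 4, or WT replicate 1, 2 or 4, each lowered it by over 1.5 times. The replicate numbers did not pair the libraries (same-numbered deviations correlated at −0.15 to 0.08 across genes), and 52 genes were called with the replicate block. Among the other sarcomere genes the 1 call, Act87E, became 0 with a pseudocount of 0.1, without a filter, with the replicate block and with the stage field, and 0 to 0 with a library left out. The cause was not tested. The calls in the other 3 muscle lists kept their numbers under all 15 alternatives. Quantile normalisation moved the median of all tested genes from −0.06 to −0.02, and the stage field to −0.18. Depth limits Mlc1 most, with at most 6 reads in a WT library. It also limits other genes in single libraries. Tm2 had 1 read and wupA 3 reads in WT replicate 4, and Mhc had 0 and TpnC47D 8 reads in WT replicate 2. In mutant replicate 3, wupA had 7 reads and TpnC73F 12 reads.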

Other observations

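Some of the matrix genes among the macrophage markers varied within the genotypes much as the sarcomere mean did. SPARC, Col4a1 and vkg were picked after their values were seen. SPARC, a collagen-binding matrix protein, had 168, 348, 66.8 and 144 TPM in the mutant libraries, against 235, 82.9, 94.0 and 104 TPM in the WT libraries (log2 difference 0.39, SE 0.45, limma adjusted p = 0.803). The collagen IV genes Col4a1 and vkg had log2 differences of 0.16 and 0.09 (limma adjusted p = 0.938 and 0.972). All 3 were highest in WT replicate 1 among the WT libraries and lowest in mutant replicate 3 among the mutant libraries. With the genotypes centred, their correlation with the sarcomere mean over the 8 libraries was 0.82, 0.84 and 0.78 for SPARC, Col4a1 and vkg. It was 0.94 for LanA, a laminin chain, but 0.33 for Ppn and 0.18 for Pxn, matrix genes of the same list. Ppn averaged 251 ± 36.9 TPM in the mutant and 323 ± 29.4 TPM in WT (limma adjusted p = 0.285).

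The gene slow, from the tendon list, differed between the genotypes without varying as the sarcomere genes did. It had 11.4, 16.6, 16.3 and 14.9 TPM in the mutant libraries, against 2.27, 1.62, 1.25 and 0.751 TPM in the WT libraries (log2 difference 2.70, SE 0.28, limma adjusted p = 0.000818), and mutant replicate 3 was not low. Its correlation with the sarcomere mean with the genotypes centred was −0.00083.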
